A study of Homo sapiens with 14 samples.

Results

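Splicing of 8 genes of histone H3 lysine 9 (H3K9) methylation, EHMT1, EHMT2, WIZ, SETDB1, SETDB2, ATF7IP, SUV39H1 and SUV39H2, was compared between SF3B1-MT and SF3B1-WT HEK293T cells. Members were all splicing events that carry 1 of these gene symbols, whatever their type, with a mean of at least 10 junction reads over the group means of WT and MT. The table held 98 events of the 8 genes among 114349, and 94 had enough reads. Of these, 82 had levels that varied between libraries and were tested among 83581 events, and 12 had the same level in every library. Of the other events, 3 were under the read minimum and 1 had no level in some library.

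The RNA-Seq part of the study comprised 3 WT and 3 MT libraries of HEK293T, an established line derived from human embryonic kidney. The MT cells are an isogenic line with the K700E substitution at the endogenous SF3B1 locus, and the WT cells carry the unchanged K700K residue. Libraries are samples of 1 line per genotype, so p-values measure the spread between these libraries. DRIP-seq, which pulls down DNA:RNA hybrids (R-loops) with the S9.6 antibody, was made in another line, the leukemic B cell line Nalm-6 with SF3B1 K700K or K700E, from DNA that was untreated or digested with RNase H1 (RNH1), with 2 libraries for each genotype and treatment. The MT columns are named MT 1 to MT 3 here by their order, because it was not settled which labelled MT replicate each one holds. Inclusion levels give no gene expression, so neither the cell type nor the mutant transcript was checked.

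H3K9 methylation marks silenced chromatin and is bound by HP1 proteins. EHMT1 (GLP) and EHMT2 (G9a) form a heterodimer that places mono- and dimethylation in euchromatin, and WIZ is a zinc finger protein of that complex. SETDB1 trimethylates H3K9 at repeats and is stabilized in the nucleus by ATF7IP, SUV39H1 and SUV39H2 trimethylate H3K9 in pericentromeric heterochromatin, and SETDB2 is a related SET domain protein. SF3B1 is the U2 snRNP protein that holds the branch site of an intron, and its K700E substitution is known for use of 3′ splice sites a short distance upstream of the usual ones.

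The sequences at 2 sites that carry the results were read from GRCh38, 5′ to 3′ along the transcript. The stretch of EHMT1 spans chr9:137743311-137743431 on the plus strand, and its capitals mark the 21 bases between the 2 competing 3′ splice sites of exon 5. The stretch of SUV39H2 spans chr10:14881470-14881660 on the plus strand, and its capitals mark exon 2.
EHMT1 exon 5: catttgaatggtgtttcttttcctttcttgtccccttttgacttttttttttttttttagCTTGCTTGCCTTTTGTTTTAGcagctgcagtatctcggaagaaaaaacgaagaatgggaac
SUV39H2 exon 2: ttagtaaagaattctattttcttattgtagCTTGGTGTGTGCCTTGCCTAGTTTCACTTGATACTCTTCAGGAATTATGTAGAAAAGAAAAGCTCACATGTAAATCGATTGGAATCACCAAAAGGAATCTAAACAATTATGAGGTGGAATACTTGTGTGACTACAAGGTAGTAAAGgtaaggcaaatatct

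In EHMT1, intron bases run up to an AG before the capitals, and the 21 bases themselves end in a second AG. Of the 20 bases before each AG, 90.0% were pyrimidines upstream and 80.0% downstream. Over the 5351 tested alternative 3′ splice site events the median was 70.0% at both sites, and over the 997 events with sites 10 to 30 bp apart it was 65.0% upstream and 70.0% downstream. The 21 bp lie at chr9:137743371-137743391 inside the coding sequence, their length is a multiple of 3, and exon 5 of 27 in the canonical transcript starts at the upstream site. Among 52 annotated EHMT1 transcripts, 10 have an exon that starts at the upstream site and 4 have one that starts at the downstream site.

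Use of the upstream 3′ splice site of EHMT1 exon 5 was higher in each of the 3 SF3B1-MT libraries than in any WT library. The inclusion level, the share of the form with the longer exon after correction for the length of each form, was 0.294, 0.301 and 0.191 in the 3 WT libraries and 0.415, 0.538 and 0.548 in the 3 MT libraries. All MT levels lay above all WT levels, and MT 1 was nearest to the WT group. The mean was 0.262 ± 0.062 in WT and 0.5 ± 0.074 in MT (SD, n = 3 each), a difference of 0.238. The levels rested on 85 to 104 junction reads per WT library and on 82, 116 and 166 reads in MT 1, MT 2 and MT 3. The longer form had 35, 32 and 19 reads in WT and 38, 68 and 99 in MT, and the shorter form 69, 61 and 66 in WT and 44, 48 and 67 in MT.

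Reads of the longer EHMT1 form either join exon 4 to the upstream site or cross the downstream site inside the longer exon. The crossing reads can be separated, because the event that starts from exon 3 counts them too. They numbered 10, 8 and 5 in WT and 10, 14 and 28 in MT. Reads from exon 4 to the upstream site alone were then 25, 24 and 14 in WT and 28, 54 and 71 in MT. As a share of the reads from exon 4 to either site, a measure added after the data were seen, these gave 0.266, 0.282 and 0.175 in WT, against 0.389, 0.529 and 0.514 in MT. The MT shares again lay above the WT shares, by 0.236 on average.

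The EHMT1 difference did not pass the main test. limma on the transformed levels of all 83581 events gave an adjusted p of 0.343, and 84 events had a smaller p. A quasi-binomial test on the junction reads, chosen after the data were seen, gave an adjusted p of 0.0204 over 80358 events, with 43 events at a smaller p. The two-sided exact permutation p was 0.1, the smallest that 3 against 3 libraries can give. Among tested alternative 3′ splice sites 10 to 30 bp apart, 5.02% (50 of 997) were higher in every MT than in every WT library by at least 0.1, against 1.94% of such events at any distance, and 16 of the 997 had a larger rise in mean level than EHMT1.

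**Figure D1:**
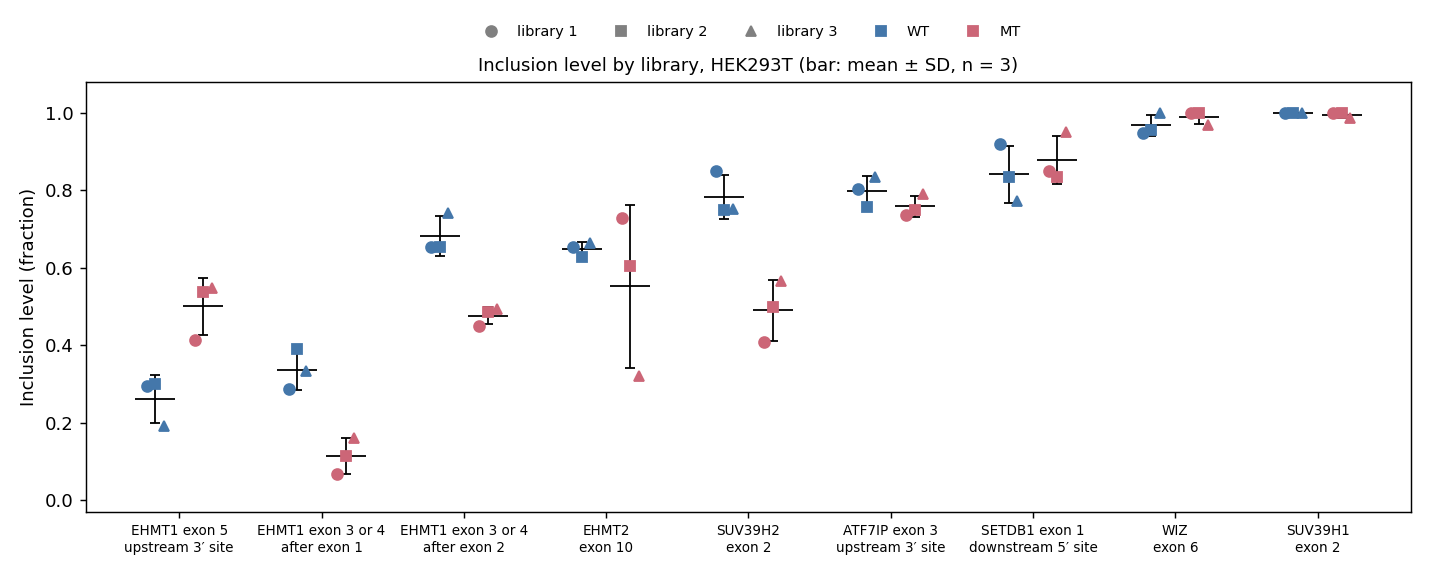
Inclusion level (fraction, y axis) of the 9 events given in full, for 3 WT (blue) and 3 MT (red) HEK293T libraries, with the mean and SD as black bars. The MT points of EHMT1 exon 5 lie above the WT points, those of both EHMT1 exon 3 or 4 events and of SUV39H2 exon 2 lie below, and the MT points of EHMT2 exon 10 range from 0.321 to 0.729.

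Other events at the same place shared reads with the one at exon 5. In an event that compares exon 3 with exon 4 after exon 1 and before the upstream site, the level of exon 3 was 0.286, 0.390 and 0.33 in WT, against 0.067, 0.115 and 0.161 in MT, on 21 to 41 reads per WT and 30 to 87 per MT library. With exon 2 as the preceding exon, it was 0.653, 0.653 and 0.741 in WT, against 0.451, 0.486 and 0.493 in MT. In both, all MT levels lay below all WT levels, with differences of -0.222 and -0.206 and a limma adjusted p of 0.596 each. Both events count the junction from exon 4 to the upstream site as reads of exon 4, so they are no separate evidence. With the downstream site in its place, the level of exon 3 was 0.405, 0.438 and 0.383 in WT, against 0.343, 0.520 and 0.5 in MT, and the groups overlapped.

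Exons 3 and 4 themselves were included in nearly all transcripts. Exon 3 between exons 2 and 4 had a level of at least 0.975 in every library, and exon 4 between exon 3 and the upstream site one of at least 0.980. Reads that joined exon 3 directly to the upstream site of exon 5 numbered 2 in MT 3 and 0 in the other libraries. A 5′ splice site 64 bp into the intron after exon 4 had a level of 0.000, 0.129 and 0.175 in WT, against 0.041, 0.032 and 0.063 in MT, which overlapped.

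Of the other EHMT1 exons, exon 2 (64 bp) came closest to a separation of at least 0.1. Its level was 0.762, 0.671 and 0.777 in WT, against 0.893, 0.818 and 0.796 in MT, a difference of 0.099 without overlap and with a limma adjusted p of 0.856. A second tested event of exon 2, on 35.4 reads, was at 0.951, 1.000 and 1.000 in WT and at 1.000 in every MT library. Its difference was 0.016, with overlap. Exon 7 (78 bp) was at 0.826, 0.774 and 0.753 in WT and at 0.629, 0.723 and 0.829 in MT, with overlap. In 14 of the 30 tested EHMT1 events, every library was at 0.9 or above. Across the 30 events, 3 differed by more than 0.1, the 3 described at exon 5, and the median absolute difference was 0.010.

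EHMT2 exon 10 did not separate the genotypes. This 102 bp exon, whose skipping yields a shorter G9a protein, is exon 10 of 28 in the canonical transcript, lies in the coding sequence and has a length that is a multiple of 3. Among 12 annotated transcripts, 3 include it and 2 skip it. Its level was 0.655, 0.627 and 0.664 in WT, against 0.729, 0.606 and 0.321 in MT. MT 1 was above and MT 2 below all WT libraries, and MT 3 was far below the others, with an exact 95% binomial interval of 0.253 to 0.399 on 148 reads that covers counting error only. The mean was 0.649 ± 0.019 in WT and 0.552 ± 0.209 in MT (SD, n = 3 each), a difference of -0.097 with a limma adjusted p of 0.856. Without MT 3 the difference turned to 0.019, with an adjusted p of 0.915.

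In MT 3, 76 reads skipped EHMT2 exon 10 and 72 included it, whereas 20 to 42 skipped it in the WT libraries and 23 and 39 in MT 1 and MT 2. An event that sets exon 10 against exon 11 and shares these reads gave exon 10 a level of 0.427, 0.33 and 0.395 in WT, against 0.417, 0.360 and 0.209 in MT, again lowest in MT 3. Where exon 10 was measured between exons 9 and 12, its level was 1.000 in 5 libraries and 0.970 in MT 2, on 57.8 reads. The other tested EHMT2 events differed by -0.056 to 0.054, and in 11 of all 18 every library was at 0.9 or above.

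**Figure D2:**
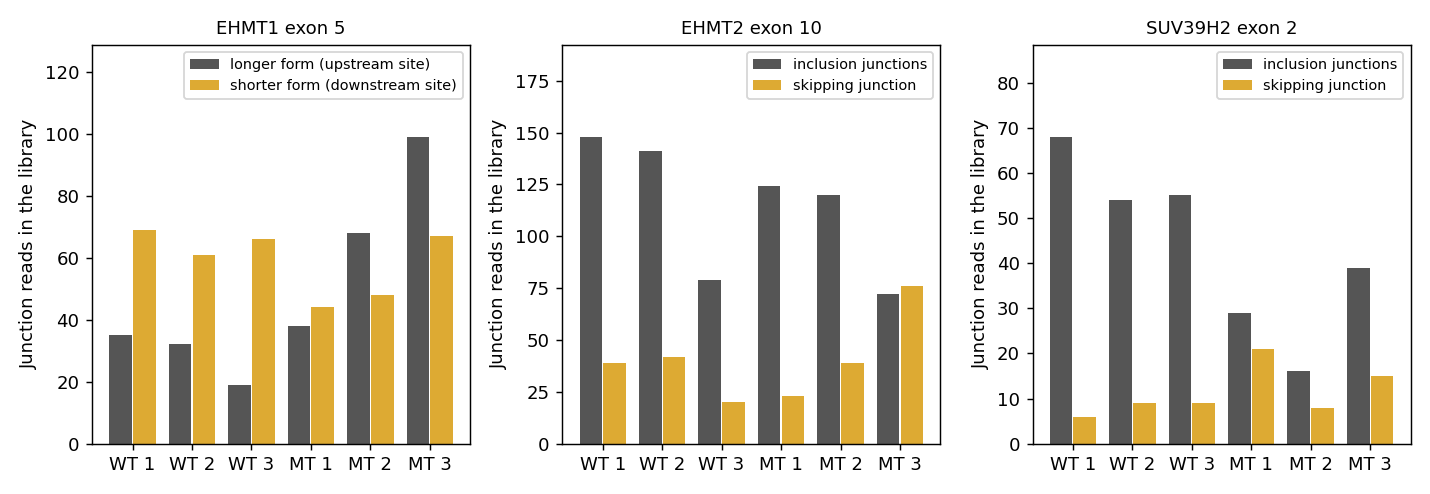
Junction reads per HEK293T library (y axis) for the 2 forms of EHMT1 exon 5, EHMT2 exon 10 and SUV39H2 exon 2 (x axis, 3 WT and 3 MT libraries). Reads of the longer EHMT1 form, which include those crossing the downstream site, exceed those of the shorter form in MT 2 and MT 3 and in no WT library, skipping reads of EHMT2 exon 10 are highest in MT 3 at 76, and inclusion reads of SUV39H2 exon 2 are 54 to 68 in WT and 16 to 39 in MT.

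SUV39H2 exon 2 had the largest difference of the 82 events. The exon is 146 bp long at chr10:14881500-14881645, is exon 2 of 6 in the canonical transcript and lies in the coding sequence, and its length is no multiple of 3. Measured from the 5′ splice site at 14878919, its level was 0.850, 0.75 and 0.753 in WT, against 0.408, 0.5 and 0.565 in MT. All MT libraries were below all WT libraries. The mean was 0.784 ± 0.057 in WT and 0.491 ± 0.079 in MT (SD, n = 3 each), a difference of -0.293 on 63 to 74 reads per WT library and 50, 24 and 54 reads per MT library. The limma adjusted p was 0.344 and that of the quasi-binomial test 0.177, so the difference passed neither, and the exact permutation p was 0.1. Of 55825 tested skipped exons, 0.756% were lower in MT without overlap and by at least 0.1.

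The same SUV39H2 exon looked different from a second 5′ splice site, 41 bp downstream of the first. There its level was 0.938, 0.887 and 0.902 in WT, against 0.813, 1.000 and 0.95 in MT, a difference of 0.012 with overlap, on 48.1 reads. Both events count the reads that join exon 2 to exon 3 as inclusion, whichever 5′ splice site precedes them, so their levels are not independent. Among the 8 annotated transcripts, 5 include the exon and 3 skip it. An alternative 5′ splice site in exon 3 of SUV39H2 was at 0.929 to 0.980 in WT and 0.938 to 0.970 in MT on 197.5 reads. SUV39H1, the paralog on chromosome X, had 1 tested event, its own exon 2 (146 bp), with a level of 1.000 in all libraries but MT 3, where it was 0.986.

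In SETDB1, 14 tested events differed by -0.043 to 0.036. The largest difference on at least 50 reads was at the 5′ splice site of exon 1, where the longer form (54 bp more) was at 0.920, 0.834 and 0.773 in WT and 0.850, 0.835 and 0.951 in MT. A pair of 3′ splice sites 3 bp apart in the same gene stood at 0.760, 0.688 and 0.738 in WT and 0.854, 0.635 and 0.699 in MT. Both overlapped between genotypes, with limma adjusted p-values of 0.856 and 0.990. In ATF7IP, the SETDB1 partner, 3′ splice sites 3 bp apart at exon 3 gave 0.803, 0.758 and 0.834 in WT and 0.737, 0.749 and 0.790 in MT, a difference of -0.040 with overlap. The other 4 tested ATF7IP events were exons at 0.968 or above in every library. One of them, a 1565 bp exon, was at 0.984, 0.970 and 0.984 in WT and at 1.000 in all MT libraries, a difference of 0.021 without overlap, with an unadjusted limma p of 0.00883 and an adjusted p of 0.840.

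WIZ exon 6 (171 bp) was at 0.949, 0.957 and 1.000 in WT and at 1.000, 1.000 and 0.968 in MT, a difference of 0.021. A second event of exon 6, on 36.5 reads, was at 0.952, 0.927 and 0.846 in WT and 1.000, 0.964 and 0.931 in MT. Its difference was 0.057, with overlap. Chosen after its values were seen, a 504 bp WIZ exon at chr19:15429586-15430089 was at 1.000, 0.957 and 1.000 in WT and 0.714, 0.808 and 0.962 in MT on 32.7 reads, with an unadjusted limma p of 0.00546 and an adjusted p of 0.753. MT 3 overlapped the WT range. Another event of this WIZ exon, on 32.0 reads, was at 1.000 in every library and was not tested. A further tested event of it, on 31.9 reads, was at 0.95 in MT 2 and at 1.000 in the other libraries. Levels as low as 0.714 and 0.808 were not seen in these events. The 6 tested SETDB2 events rested on 10 to 26.9 reads and differed by -0.130 to 0.115, all with overlap.

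Over all members, no event was called by limma at an adjusted p under 0.05 and a difference above 0.1 (0 of 82), and 26 of 83581 events, 0.0311%, were called in the whole table. At an unadjusted p under 0.05, limma found 6 of the 82, against 4.47% of all events, and the quasi-binomial test found 6, against 5.25%. Each set includes the 3 EHMT1 events that count the same junction, so neither is a count of separate events. Only the limma set held the 504 bp WIZ exon on 32.7 reads. Only the quasi-binomial set held a 301 bp EHMT2 exon on 123.7 reads, with an unadjusted p of 0.00486 and an adjusted p of 0.661. Its WT levels were 0.007 to 0.018, and its MT levels of 0.012 to 0.086 overlapped them. At an adjusted p under 0.05 and a difference above 0.1, the quasi-binomial test called 1 member, EHMT1 exon 5, against 0.0709% of all events. Groups did not overlap and differed by at least 0.1 in 4 member events, against 1.74% of all events, and 3 of the 4 count the same EHMT1 junction. The 1 that was higher in MT, EHMT1 exon 5, stood against 0.755% of all events, and the 3 that were lower against 0.981%. With no minimum difference, 3 member events were higher and 4 lower without overlap, against 5.46% of all events in either direction. The median difference was -0.003 in members and -0.002 in all events, and the median absolute difference was 0.011 and 0.014. In 74 of the 82 events the means differed by no more than 0.1, and 5 of the other 8 had fewer than 50 reads.

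**Figure D3:**
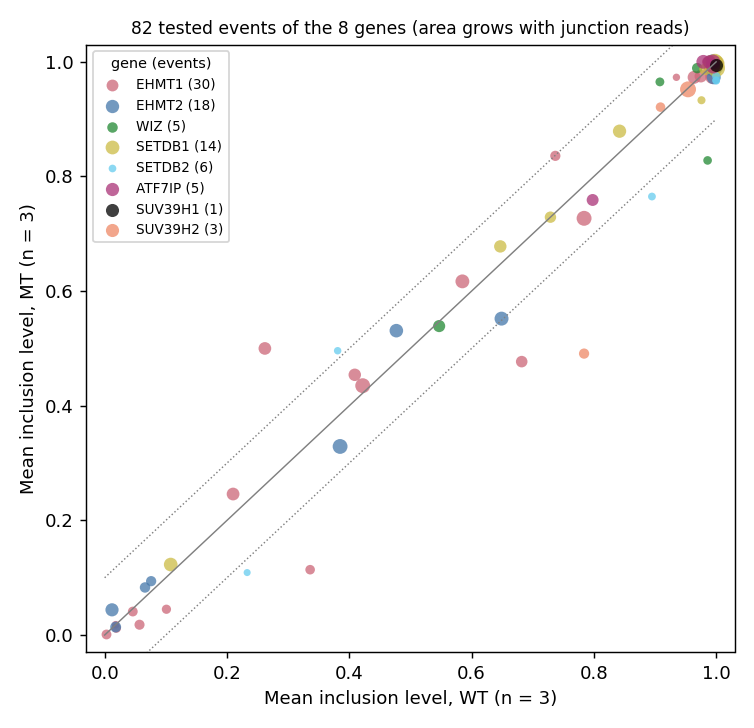
Mean inclusion level in MT (y axis) against WT (x axis), 3 libraries each, for the 82 tested events, with point area growing with junction reads and dotted lines at differences of 0.1. Most points lie near the diagonal, 45 events have every library at 0.9 or above, and EHMT1, SUV39H2, WIZ and SETDB2 have points outside the dotted lines.

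A wider list of 27 genes of H3K9 methylation was examined in the same fit, and 26 had tested events. No event was called by limma (0 of 232) or by the quasi-binomial test (0 of the 221 it could use), and 9 had an unadjusted limma p under 0.05, all in demethylases. Of all tested events 4.47% did so, so the count is no result about the list. The 11 demethylase genes held 108 of the events, the HUSH complex 51, the partner and recruitment proteins 37, the other writers 24 and the HP1 readers 12. The demethylase KDM1A (LSD1) had an upstream 3′ splice site at 0.049, 0.012 and 0.037 in WT and 0.108, 0.051 and 0.080 in MT. All MT levels were above the WT levels, and the difference was 0.047 with a limma adjusted p of 0.856. Exons of KDM4B (166 bp) and KDM3B (75 bp), 2 further demethylases, were at 1.000 in every MT library and at 0.939 to 0.977 and 0.973 to 0.987 in WT. A KDM3B pair of exons counted as mutually exclusive had a level of 0.032, 0.019 and 0.022 in WT, against 0.000, 0.005 and 0.006 in MT. MORC2, an ATPase that works with the HUSH complex, had an exon (110 bp) at 0.000 to 0.012 in WT and 0.018 to 0.084 in MT.

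The events whose levels over the 6 libraries were most like those of EHMT1 exon 5, relative to the WT mean, were found among 3161 alternative 3′ splice sites with at least 50 reads. They lay in VEZT, CRTC2, TRIM37, TBC1D16 and TGFBR1, with a root mean square distance of 0.045 to 0.069. VEZT, with sites 12 bp apart, was at 0.621, 0.613 and 0.590 in WT and 0.819, 0.841 and 0.841 in MT. TRIM37, with sites 27 bp apart, was at 0.000, 0.069 and 0.075 in WT and 0.275, 0.285 and 0.294 in MT. In these 5 events the mean level was higher in MT by 0.165 to 0.237, against 0.238 in EHMT1, as the choice by likeness fixes.

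In Nalm-6 cells, bona fide R-loop peaks were counted from 3 kb before each gene to its end. A peak of untreated DNA counted as bona fide when no RNH1-treated peak of the matching genotype and replicate number touched it. The 8 genes together held 22 and 18 peaks in the WT libraries and 16 and 25 in the MT libraries. The mean was 20 ± 2.8 in WT and 20.5 ± 6.4 in MT (SD, n = 2 each), and the two-sided exact permutation p was 1.0, where 0.33 is the smallest that 2 against 2 libraries allow. Over all 20007 protein-coding genes the same count gave 48912 and 42297 peaks in WT, against 62634 and 75719 in MT.

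EHMT1, the longest of the genes at 251.0 kb, held 8 and 5 bona fide peaks in WT and 8 and 8 in MT. Both MT libraries exceeded both WT libraries in SETDB1 (1 and 3 against 4 and 5) and SETDB2 (2 and 2 against 3 and 5), as in 26.2% of all protein-coding genes. In ATF7IP the WT libraries held 11 and 8 peaks, more than the 1 and 5 of the MT libraries, a pattern found in 5.26% of genes. Before subtraction, the untreated ATF7IP peaks numbered 11 and 11 in WT and 6 and 10 in MT. RNH1-treated peaks over the gene numbered 1 and 6 in WT and 8 and 8 in MT. How much of the pattern comes from the subtraction was not tested. WIZ and SUV39H1 held 0 bona fide peaks in every library, and EHMT2 and SUV39H2 held 1 in MT replicate 2 and 0 in the others. No peak of any library, treated or not, overlapped the 21 bp of EHMT1, EHMT2 exon 10 or SUV39H2 exon 2. Exon 4 of EHMT1, singled out after its values were seen, overlapped 1 peak in each untreated MT library, with a fold enrichment of 3.86 and 11.81, and none in the untreated WT libraries. It also overlapped 1 peak in the RNH1-treated MT replicate 2, with a fold enrichment of 3.1, and no test was made. The untreated peak at 11.81, in MT replicate 2, did not count as bona fide. The highest bona fide value over EHMT1 in that library was 9.53.

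**Figure D4:**
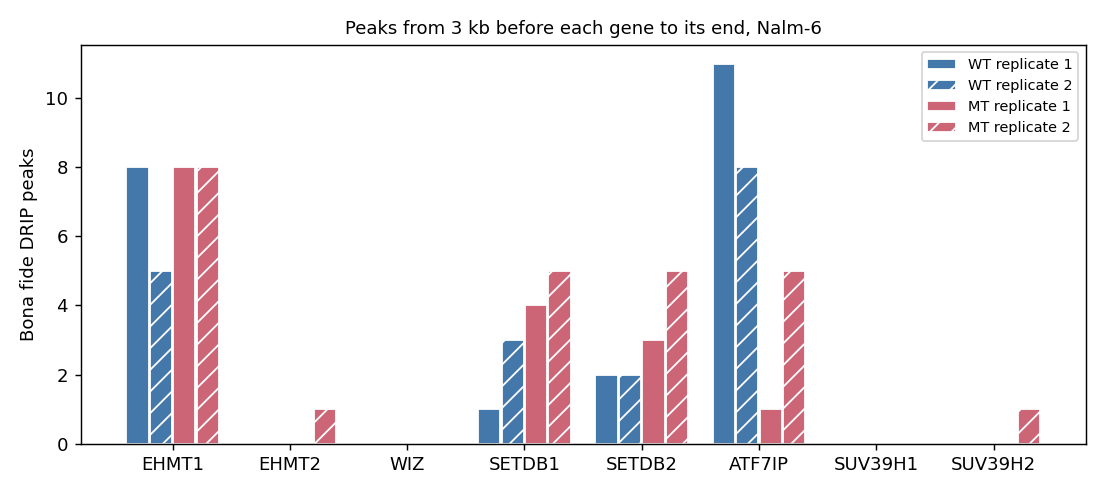
Number of bona fide DRIP peaks (y axis) over each of the 8 genes (x axis) in 2 WT (blue) and 2 MT (red) Nalm-6 libraries, with replicate 2 hatched. ATF7IP has more peaks in WT (11 and 8) than in MT (1 and 5), SETDB1 and SETDB2 have more in MT, and EHMT1 has 5 to 8 in every library.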

How the data were processed

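RNA-Seq of HEK293T cells (3 WT, 3 MT libraries) and DRIP-seq of Nalm-6 cells (2 libraries per genotype and treatment) were used, grouped by their labels. Methods name the rMATS model for splicing, and for DRIP-seq BWA-MEM alignment to GRCh38 and MACS2 peaks. The submitters' processing notes also name STAR and StringTie. The authors' deposited inclusion levels are fractions with 3 decimals, from inclusion and skipping junction reads, each divided by the length of its form. Each peak in the deposited lists has its fold enrichment over background, a ratio. Differences and p-values of the authors' own comparison, also deposited, were not used.

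The table lists 6 MT values per event although 3 MT samples are labelled. The 3 MT columns equal listed positions 1, 2 and 6, and the 3 values without a column were not used. The mean MT reads are the authors' mean over all 6. For 22499 events (22 of members) the last MT read count had lost digits in the deposited list and was recovered from that mean. Levels recomputed from the reads matched the deposited ones within 0.001 in all 6 libraries, in 106678 to 107917 events. Junction reads summed to 10255775 to 12196396 in WT and 9516994 to 12620910 in MT libraries.

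Arcsine square-root levels were fitted with limma 3.58.1 (R 4.3.3) with a variance trend on mean reads, over all events with at least 10 mean reads, a level in every library and levels that vary. Benjamini-Hochberg adjustment ran over all 83581 events, and an event was called at an adjusted p under 0.05 with a difference above 0.1. A quasi-binomial test and a weighted fit on the reads were added after the data were seen. The scripts were tested on simulated data. Intervals are exact 95% binomial intervals. Alternatives were another transform, no trend, other read minimums, other peak rules and each library left out.

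Members and lists were chosen with earlier results of these data known. Given in full were the EHMT1 exon 5 and EHMT2 exon 10 events, called events, events without overlap at a difference of at least 0.1 and, for each other gene, the event with the largest difference on at least 50 reads. For the wider list they were called events and the 5 with the largest difference without overlap on at least 50 reads, and for likeness the 5 nearest genes. Exons follow the GENCODE 44 annotation on GRCh38.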

Additional observations from a re-analysis of the deposited data

How the results depend on the processing

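No paired analysis was possible because the MT columns carry no replicate number that ties them to a labelled sample, and in DRIP-seq the result is a sum of peaks compared by permutation. The number of all events called, 26, was 0 with logit levels, 0 without a variance trend, 17 at a minimum of 50 reads, 57 with the quasi-binomial test, 50 with precision weights and 3 to 13 with 1 library left out, lowest without MT 1. The cause was not tested. Member events called stayed at 0 in 11 alternatives and were 1 with the quasi-binomial test. The EHMT1 exon 5 difference was 0.203 to 0.281 with 1 library left out and kept its direction in all 13 alternatives, among them 0.236 with reads from exon 4 alone; its adjusted p ranged from 0.0204 (quasi-binomial, difference 0.238) to 0.894, and was 0.139 with precision weights. EHMT2 exon 10 ranged from -0.185 to 0.019 with 1 library left out and changed sign without MT 3 (0.0188). SUV39H2 exon 2 kept its direction in all 12, with an adjusted p of 0.177 to 0.894. Member events without overlap at a difference of at least 0.1 numbered 5 to 8 with 1 library left out, against 4, with 7 without MT 1 and 8 without MT 3, where fewer libraries have to separate. Log2 of MT over WT peaks of the 8 genes was 0.036, against 0.601 over all protein-coding genes. It was 0.558 without RNH1 subtraction, against 1.134 over all genes, and -0.392 at a fold enrichment of at least 4, against 0.283. With 1 library left out it was -0.322 to 0.322, so for the 8 genes it has no settled direction. Events under 50 reads, among them all of SETDB2, allow no firm statement.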
